A study of Mus musculus with 2 samples.

Results

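The places described here are H3K4me3 events listed as higher in wild-type (WT) than in Dicer knockout (KO) mouse mesenchymal stromal cells, with an H3K27ac event higher in WT close by and no listed H3K36me3 event around them. They were chosen by the listed read differences themselves, as the events of the WT-higher H3K4me3 list that had an event of the WT-higher H3K27ac list within 5 kb and no event of either H3K36me3 list within 10 kb. The rule took 313 of the 5542 events of that H3K4me3 list, 5.65%, and of 21418 events in the 6 lists of the series. Merged where they lay within 5 kb of each other, the 313 events formed 141 loci. Because the listing itself chose them, every level below that sets KO against WT is a description, and no difference was tested.

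The KO cells were monoclonal immortalized stromal cells without Dicer, and the WT cells were monoclonal immortalized cells of the same kind with Dicer. Both are named fibroblasts in the sample titles. They grew in the same serum-containing medium, and no treatment other than fixation was given. Neither the number of clones behind each genotype nor the way Dicer was deleted is stated, so clone and genotype cannot be told apart. The labels describe 1 H3K27ac sample per genotype, while the H3K4me3 and H3K36me3 lists carry the genotype names alone. Each list gives 1 value per genotype, so there is no replicate error, and the intervals given are 95% exact intervals for counting error only. No molecular identifiers are mentioned, so reads may repeat the same molecule and the intervals may be too narrow. Library depth is unknown. Neither the knockout nor the cell type could be checked, since positions are in mm9 and no gene annotation of that build was used here.

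Dicer is the ribonuclease that cuts microRNA precursors into mature microRNAs, and cells without it lose most microRNAs. H3K4me3 is laid down at promoters by SET1 and MLL methyltransferases. H3K27ac is written by the acetyltransferases p300 and CBP at active promoters and enhancers. H3K36me3 is added by SETD2 along gene bodies as RNA polymerase II elongates. Mesenchymal stromal cells are connective tissue cells that can give rise to bone, cartilage and fat cells.

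The only sequences in the lists are 8-base words that the event caller attached to some H3K4me3 events. They are shown because they are the sequence feature the list itself reports for these events. The 3 words follow 5′ to 3′, with capitals for the bases that all 3 share.
first word: CgCCCgGT
second word: CcCCCgGT
last word: CgCCCtGT
Of the 313 events, 16 (5.11%) carried a word, against a background of 6.37% over the whole WT-higher H3K4me3 list. The first word stood at 7 of the 313 events and at 139 of the 5542, the second at 6 and 108, and the last at 3 and 106. In 32851 RefSeq promoter windows of 300 bases (build GRCm38.p6), searched on both strands, 0.861% held the first word, 0.661% the second and 1.00% the last. A window could hold more than 1 of the words. The events carry a word that the caller attached in mm9, while the windows were searched for any occurrence in another build. These shares are not like for like, and nothing is read from setting them side by side. The event with the largest −log10 q of all 313, at 136391141 on chromosome 4, carried the first word on the minus strand.

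H3K4me3 was lower in KO at these places by construction, and the sizes ran from a small difference to near absence. The KO level, meaning scaled KO reads as a percentage of WT reads at the same event, had a median of 14.1% over the 313 events, with quartiles of 5.50% and 22.0%. It ran from 0% to 79.7%. The deposited fold runs the other way, WT over KO. The median event had 44.7 scaled reads in KO (quartiles 18.7 and 96.2) and 412 reads in WT (235 and 603). Over the whole WT-higher H3K4me3 list the median KO level was 33.2%, with a median of 176 scaled reads in KO and 558 reads in WT.

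A KO level of at most 50% of WT was seen at 307 of the 313 events, against a background of 93.5% over the list, and nothing is read from that share since the listing fixed it. The upper limit of the interval lay below 50% at 302 of the 313, against 85.3% over the list. A KO level of at most 10% was seen at 126 events, 40.3%, against a background of 8.95%. Those 126 were 25.4% of the 496 events of the list at or below 10%. The share was not particular to the 313. Among events with H3K27ac within 5 kb and also H3K36me3 within 10 kb it was 45.2% (66 of 146). The scale matters for these sizes: with KO and WT reads each set over the background listed for that genotype and chromosome, the median KO level was 25.7% for the 313 events and 67.3% for the list. At that scale 78 of the 313 events had at most 10%, against 278 of the 5542. At most 50% was seen at 264 of the 313, against a background of 30.1%. Above 100% lay 3 of the 313, against 607 of the 5542. The 3 were the events at position 115897660 of chromosome 2, position 52202223 of chromosome 6 and position 110684191 of chromosome 9. Chromosome 9 held 1409 of the 5542 events and 28 of the 313, so the chromosome mix enters these backgrounds. Of its events, 384 were among the 607, and 104 of the 1409 had at most 50%, against 22 of the 28.

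**Figure D1:**
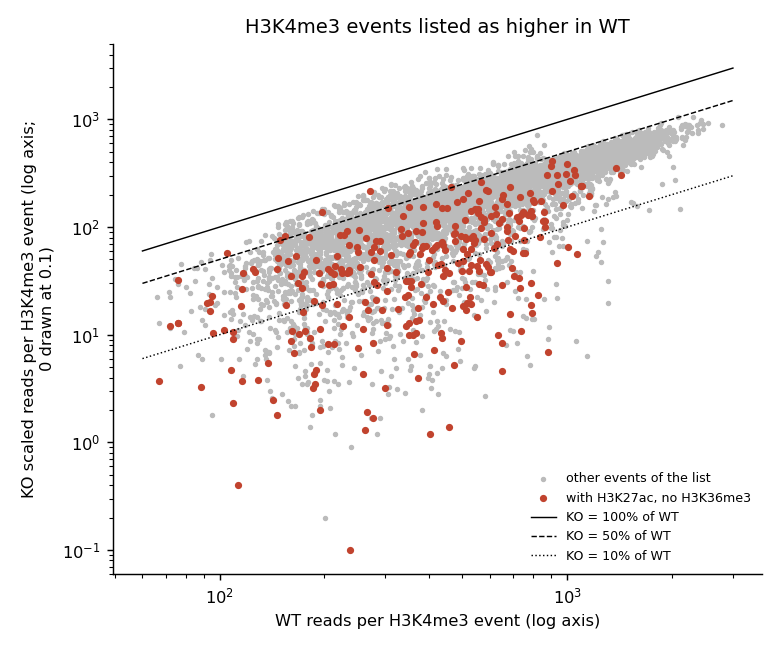
Scaled KO reads against WT reads for each of the 5542 H3K4me3 events listed as higher in WT, on log axes, with lines at 100%, 50% and 10% of WT. The 313 events with H3K27ac and without H3K36me3 (red) lie lower than most others (grey), with 126 of them at or under the 10% line, and the single one with 0 KO reads is drawn at 0.1.

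The other H3K4me3 events of the list fall into groups by the same neighbours. The 146 events that had H3K27ac within 5 kb and also H3K36me3 within 10 kb had a median KO level of 11.6% (quartiles 4.55% and 23.8%). The 1009 events with H3K36me3 but no H3K27ac had a median of 31.4%, and the 4074 events with neither had 34.6%. The 2 groups with H3K27ac thus lay close together, and the 2 groups without it lay close together, as values. All 146 events left out for H3K36me3 had a neighbour in the WT-higher H3K36me3 list, and 0 had one in the KO-higher list.

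Events just inside and outside the distances of the rule show how it divided the list. Inside the H3K27ac distance were the event at 129418922 on chromosome 2, 4960 bp away with a KO level of 3.65%, that at 25978647 on chromosome 2, 4921 bp away with 33.2%, and that at 42506119 on chromosome 15, 4875 bp away with 23.7%. Outside it were those at 134087391 on chromosome 1 (5173 bp, 19.5%), 43875580 on chromosome 9 (5415 bp, 40.4%) and 128329165 on chromosome 10 (5446 bp, 32.0%). Nearest to H3K36me3 among the 313 were the events at 57788365 on chromosome 9 (10362 bp, 21.7%), 57789154 beside it (11151 bp, 13.8%) and 26631694 on chromosome 8 (11253 bp, 15.8%). Left out for H3K36me3 were 22814568 on chromosome 14 (9585 bp, 15.4%), 22813847 beside it (8864 bp, 5.63%) and 130348586 on chromosome 4 (7999 bp, 15.3%). Levels on either side of the distances overlapped. The median event lay 114 kb from its nearest H3K36me3 event and the farthest 6.32 Mb, while the median of the whole list was 113 kb. The list includes events within 10 kb of H3K36me3, which the rule left out of the 313, so these medians are not like for like. A place without a listed H3K36me3 event has no listed difference in that mark, which says nothing of its H3K36me3 level.

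The 10 events with the largest H3K4me3 −log10 q, taken 1 per locus, lay on 8 chromosomes and had 4.6 to 64.8 scaled reads in KO against 648 to 1071 reads in WT. The leading event, at 136391141 on chromosome 4, had 6.9 scaled reads in KO and 882 reads in WT, a KO level of 0.782% (0.436 to 1.30). At 48741517 on chromosome 14, KO had 56.5 scaled reads and WT 1071 reads, a level of 5.27% (4.35 to 6.38). At 44558123 on chromosome 16 the values were 64.8 in KO and 1005 in WT, a level of 6.45% (5.38 to 7.72). All 10 levels lay under 10% at the scale of the lists, between 0.709% and 6.45%, and between 1.14% and 10.2% in units of own background.

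On chromosome 4 the event at 62876813 had 46.2 scaled reads in KO and 935 reads in WT, a level of 4.94% (3.97 to 6.06). The chromosome 9 event at 43552159 showed 15.9 scaled reads in KO and 791 reads in WT, a level of 2.01% (1.41 to 2.86). At 67404312 on chromosome 2 the KO value was 23.4 and the WT value 826, a level of 2.83% (2.10 to 3.77). These 3 places all had KO levels under 5%. At 38556067 on chromosome 19, KO had 18.7 scaled reads and WT 788 reads (2.37%, 1.71 to 3.28). At 33429334 on chromosome X, KO had 10.9 and WT 737 (1.48%, 0.956 to 2.25). At 24605662 on chromosome 5 the level was 3.84% (2.96 to 4.98), with 30.2 in KO and 786 in WT. The last of the 10 had the lowest level among them: at 124436812 on chromosome 2, KO had 4.6 scaled reads and WT 648 reads, a level of 0.709% (0.339 to 1.32).

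The H3K27ac event nearest to each of these 10 had the higher KO level of the marks at each of the 10 at the scale of the lists, from 6.17% to 37.7%. In units of own background this held at 9 of the 10, the exception being chromosome 16, with 10.2% for H3K4me3 and 9.02% for H3K27ac. The 10 were picked for their H3K4me3 difference, which favours this order, and nothing is read from it. Over all 141 loci, H3K4me3 was the lower mark in 66 in units of own background. Beside the leading H3K4me3 event on chromosome 4, H3K27ac at 136390641 had 29.5 scaled reads in KO and 228 reads in WT, a level of 12.9% (8.35 to 19.3). Beside the event on chromosome 14, H3K27ac at 48741590 had 145 in KO and 384 in WT, a level of 37.7% (30.6 to 45.9). The lowest of the 10 was on chromosome 2, at 67404371, with 15.6 in KO and 253 in WT, a level of 6.17% (3.26 to 10.3).

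The lowest H3K4me3 levels were found on chromosome X. At 149471006, KO had 0 reads and WT 237 reads, a KO level of 0% with an exact upper limit of 0.722%. Set at a floor of 3 KO reads, the level would be 0.582%. At 149471756 beside it, KO had 1.4 scaled reads and WT 458 reads, a level of 0.306% (0.0620 to 0.887). At 38755076 on the same chromosome, KO had 1.2 and WT 403, a level of 0.298% (0.0704 to 1.01). At such levels a few KO reads decide the value: 5 of the 313 events had 3 or fewer unscaled KO reads. Other low events were at 136390457 on chromosome 4 (0.494%, 0.108 to 1.55) and 20902560 on chromosome 14 (0.617%, 0.181 to 1.73).

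At the other end, 6 of the 313 events had KO levels over 50%. The highest, at 52202223 on chromosome 6, had 216 scaled reads in KO and 271 reads in WT, a level of 79.7% (68.5 to 92.9). Next came 115897660 on chromosome 2 with 139 in KO and 197 in WT, a level of 70.6% (58.8 to 84.9). Both belong to loci with many events, described below. The other 4 had levels from 51.3% at 21935625 on chromosome 6 and 115901882 on chromosome 2 to 54.4% at 29322965 on chromosome 14, with 54.0% at 110684191 on chromosome 9.

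H3K27ac beside these places was also lower in KO by construction, with a narrower range than H3K4me3. In all, 186 of the 1765 events of the WT-higher H3K27ac list, 10.5%, lay within 5 kb of the 313. Their median KO level was 27.9% (quartiles 19.5% and 36.4%), from 6.17% to 74.1%, with a median of 75.8 scaled reads in KO and 289 reads in WT. The whole list had a median level of 25.9%, with 78.7 scaled reads in KO and 304 reads in WT. Levels of at most 50% were seen at 179 of the 186, against a background of 95.5%, and levels of at most 10% at 3 of the 186, against 6.4%. The upper limit lay below 50% at 159 of the 186, against 84.5% over that list. In units of own background the medians were 23.4% for the 186 and 21.3% for the list, and 181 of the 186 lay at or under 50%, against a background of 97.2%.

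Summed over each of the 141 loci, H3K4me3 had a median KO level of 15% (quartiles 7.75% and 21.6%), from 0.201% to 42.5%. H3K27ac had 27.7% (19.8% and 35.7%), from 6.17% to 74.1%. The level of H3K4me3 was the lower of the 2 marks in 129 of 141 loci at the scale of the lists, but in 66 of 141 in units of own background, so which mark differs more depends on the scale. At the scale of the lists the intervals of the marks were apart with H3K4me3 lower in 99 loci, apart with H3K27ac lower in 3, and overlapping in 39. Over all loci together, H3K4me3 summed to 22775 scaled reads in KO and 140595 reads in WT, and H3K27ac to 16687 scaled reads in KO and 58191 reads in WT, levels of 16.2% and 28.7%.

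Loci with a low H3K4me3 level tended to have a low H3K27ac level. Over the 141 loci, Spearman's rho between the marks was 0.585 and Pearson's r of the log2 levels was 0.561, and in units of own background rho was 0.551. These correlations run across loci of the same libraries, which share scale factors and, within chromosomes, background, and they are given as descriptions. The 53 loci whose H3K4me3 level was at most 10% had a median H3K27ac level of 19.8% (15.4% and 25.4%). The 88 loci over 10% had 33.9% (25.8% and 37.6%). In units of own background these medians were 16.5% and 28.3%. WT reads were much alike in these sets: medians of 728 and 741 for H3K4me3, and of 288 and 312 for H3K27ac. Both marks were at most 10% in 2 loci. These were 67403697 to 67405007 on chromosome 2, with 4.26% for H3K4me3 and 6.17% for H3K27ac, and 43552159 to 43552999 on chromosome 9, with 1.67% and 9.48%.

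**Figure D2:**
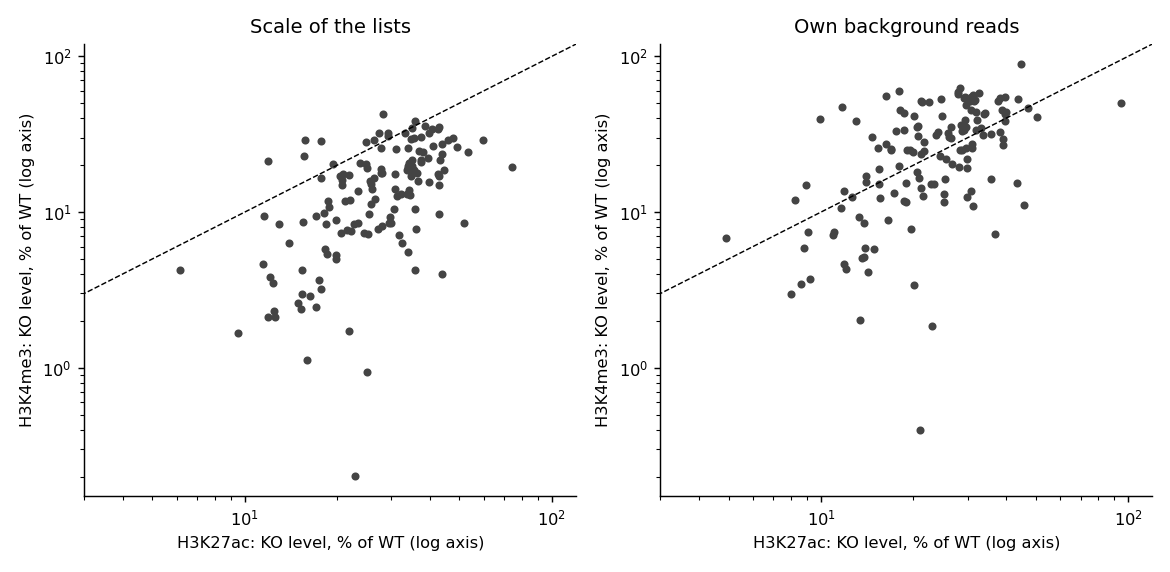
KO level of H3K4me3 against KO level of H3K27ac, each as a percentage of WT on a log axis, for the 141 loci (points), at the scale of the lists (left) and in units of own background reads (right), with a dashed line where the marks are equal. At the scale of the lists 129 loci lie under the line, and in units of own background 66 do.

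At the scale of the lists, the 3 loci in which H3K27ac was the lower mark with intervals apart were on chromosomes 4, 5 and 7. At 47616641 on chromosome 4, H3K4me3 had a KO level of 28.5% (24.1 to 33.5) and H3K27ac 17.7% (13.3 to 23.4). At 51943266 to 51944411 on chromosome 5, 4 H3K4me3 events had 436 scaled reads in KO and 2038 reads in WT, a level of 21.4% (19.8 to 23.1), and H3K27ac had 87.7 and 738, a level of 11.9% (9.29 to 14.9). At 38147139 on chromosome 7, H3K4me3 had 68.6 in KO and 236 in WT, a level of 29.1% (23.5 to 35.8), while 3 H3K27ac events summed to 173 in KO and 1097 in WT, a level of 15.8% (13.2 to 18.6). That last place had a single small H3K4me3 event beside one of the largest H3K27ac signals of all 141 loci. In units of own background H3K4me3 and H3K27ac had 55.7% and 16.2% on chromosome 4, and 39.4% and 9.89% on chromosome 5. On chromosome 7 they had 47.2% and 11.7%. At that scale H3K4me3 was the lower mark in only 66 of the 141 loci, so H3K27ac being lower is not rare there.

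H3K27ac had a KO level over 50% of WT in 4 loci at the scale of the lists. At 121276305 on chromosome 9, H3K27ac had 211 scaled reads in KO and 285 reads in WT, a level of 74.1% (61.4 to 89.2), beside an H3K4me3 level of 19.3% (14.7 to 25.2). In units of own background the levels there were 94.5% for H3K27ac and 50% for H3K4me3. At 25978062 to 25978647 on chromosome 2 the levels were 59.5% (47.9 to 74.0) for H3K27ac and 29.0% (26.4 to 31.8) for H3K4me3. At 122161598 on chromosome 1 they were 53.2% (41.1 to 68.0) and 24.3% (20.5 to 28.6). In units of own background the marks lay close together at both places. H3K27ac and H3K4me3 had 47.3% and 46.6% on chromosome 2, and 39.6% and 38.5% on chromosome 1. The fourth, at 48740497 to 48745697 on chromosome 14, had 51.8% (46.5 to 57.7) for H3K27ac and 8.46% (7.76 to 9.21) for H3K4me3, and in units of own background 43.5% and 15.4%.

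The H3K4me3 and H3K27ac events lay close together. The nearest H3K27ac event was a median of 458 bp away (quartiles 125 and 812 bp). It lay within 500 bp at 166 events (53.0%), within 1 kb at 259 (82.7%) and within 2 kb at 296 (94.6%). Of the 85 loci with more than 1 H3K4me3 event, 58 had an H3K27ac event inside the stretch those events covered, and 27 had it only outside. H3K27ac stood on both sides of that stretch in 10 of the 141 loci. Level and distance did not go together in a steady way: the median H3K4me3 KO level was 14.5% within 500 bp (166 events), 13.8% from 500 bp to 1 kb (93), 11.9% from 1 to 2 kb (37) and 17.6% from 2 to 5 kb (17).

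**Figure D3:**
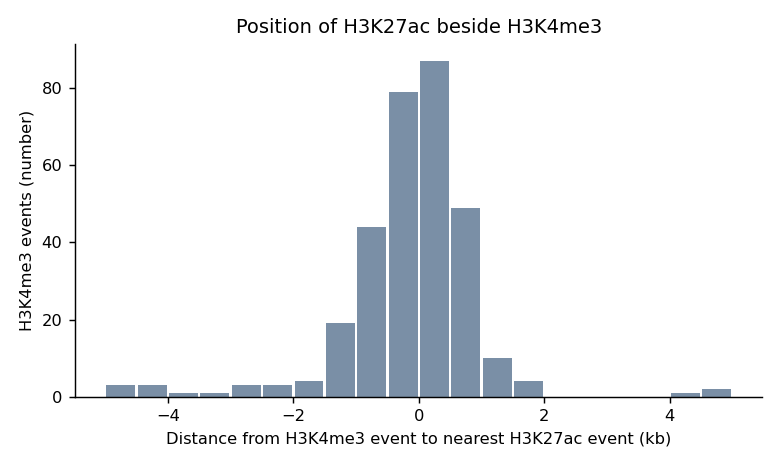
Number of the 313 H3K4me3 events by the signed distance in kb to the nearest H3K27ac event, in steps of 500 bp, with negative values toward the start of the chromosome. Most lie near 0, with 166 within 500 bp on either side.

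Of the 141 loci, 56 held 1 event, 35 held 2, 30 held 3, 13 held 4, 4 held 5, 2 held 8 and 1 held 9. The 85 loci with 2 or more events had a median length of 1034 bp and reached 12821 bp. A single H3K27ac event lay beside 103 loci, 2 beside 32, 3 beside 5 and 4 beside 1. Single events had fewer WT reads, with a median of 35.0 scaled reads in KO and 226 in WT, against 57.0 and 473 for events in loci of 3 or more. Their median KO levels were 17.0% and 13.1%. Neighbouring events share reads and are not independent measurements.

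Within a locus the events often differed from each other. In the 50 loci with 3 or more events, the highest KO level was a median of 2.75 times the lowest, and over 2 times in 33. The event with the fewest WT reads had the highest level in 18 of the 50. The event with the most WT reads had the lowest level in 9. No expected count was worked out for either, and nothing is read from them. The widest spread was at 14128770 to 14131919 on chromosome 18, where 5 events ran from 1.07% to 24.8%. At 24605019 to 24606890 on chromosome 5 the 4 levels, in order of position, were 1.74%, 3.84%, 13.1% and 39.4%. Here KO had 7.2, 30.2, 98.4 and 91.8 scaled reads and WT 413, 786, 753 and 233 reads. The level was thus lowest at one end and highest at the other, while WT reads were highest in the middle.

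The locus with most events was 52202223 to 52211001 on chromosome 6, with 9. Its H3K4me3 events summed to 1896 scaled reads in KO and 5526 reads in WT, a level of 34.3% (32.9 to 35.7), and its 2 H3K27ac events to 897 and 2114, a level of 42.4% (39.1 to 46). It had the most H3K27ac reads of all loci. The levels were not even along it: 79.7%, 41.2%, 45.4%, 30.6% and 45.0% at the first 5 events, 44.3% at the sixth, 13.4% and 18.9% at the seventh and eighth, and 40.2% at the last. The lowest of them, at 52209435, had 114 scaled reads in KO and 854 reads in WT, and the H3K27ac event at 52210090 near it had 31.0% (26.6 to 36.2), against 48.7% (44.2 to 53.7) at 52204130. In units of own background the order of the marks over the locus was the other way, with 55.2% for H3K4me3 and 30.8% for H3K27ac.

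The longest locus, 115889062 to 115901882 on chromosome 2, held 8 events with a level of 32.2% (30.7 to 33.8), from 1288 scaled reads in KO and 3999 reads in WT. Its levels were 18.1%, 20.9% and 21.6% at the first 3 events, 31.3%, 38.3% and 49.4% at the next 3, then 70.6% and 51.3%. WT reads at the last 2 events were 197 and 149, against 473 to 842 at the first 3. Its 3 H3K27ac events had similar levels, 37.1%, 43.3% and 39.0%, with 39.7% (35.6 to 44.2) in all. H3K4me3 thus differed along the locus beyond the counting intervals, and the 3 H3K27ac levels had overlapping intervals. In units of own background the locus had 51.9% for H3K4me3 and 31.5% for H3K27ac.

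On chromosome 14, 8 events at 29317736 to 29324523 had 324 scaled reads in KO and 3896 reads in WT, a level of 8.33% (7.67 to 9.02). Of these, 7 had levels from 4.60% to 9.80%, and the eighth, with 105 WT reads, had 54.4%. The 2 H3K27ac events had 15.5% (10.8 to 21.6) and 22.8% (15.5 to 32.2). On chromosome 17, 5 events at 67701986 to 67704351 were close to each other in level, from 16.0% to 25.6%, with 17.8% (16.6 to 19.1) in all from 529 in KO and 2970 in WT. H3K27ac there had 35.0% (30.6 to 40.0). In units of own background H3K4me3 and H3K27ac had 30.3% and 26.2% there, against 15.1% and 15.4% at the chromosome 14 locus.

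A pair of neighbouring loci on chromosome 14 lay 5395 bp apart and differed in H3K27ac. In the first, 48740497 to 48745697, H3K4me3 had 291 scaled reads in KO and 3445 reads in WT, and 4 H3K27ac events had 548 and 1057. In the second, 48751092 to 48754294, H3K4me3 had 42.4 and 579, a level of 7.32% (5.81 to 9.13), and 3 H3K27ac events had 255 and 1241, a level of 20.5% (17.8 to 23.6). Their H3K4me3 levels, 8.46% and 7.32%, have overlapping intervals, while their H3K27ac levels, 51.8% and 20.5%, do not. Within the first, the H3K4me3 level was 18.3% at the first event and 1.77% and 1.82% at the last 2, and the H3K27ac event at 48745920, beside the last of these, had 60.4% (47.4 to 77.2).

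**Figure D4:**
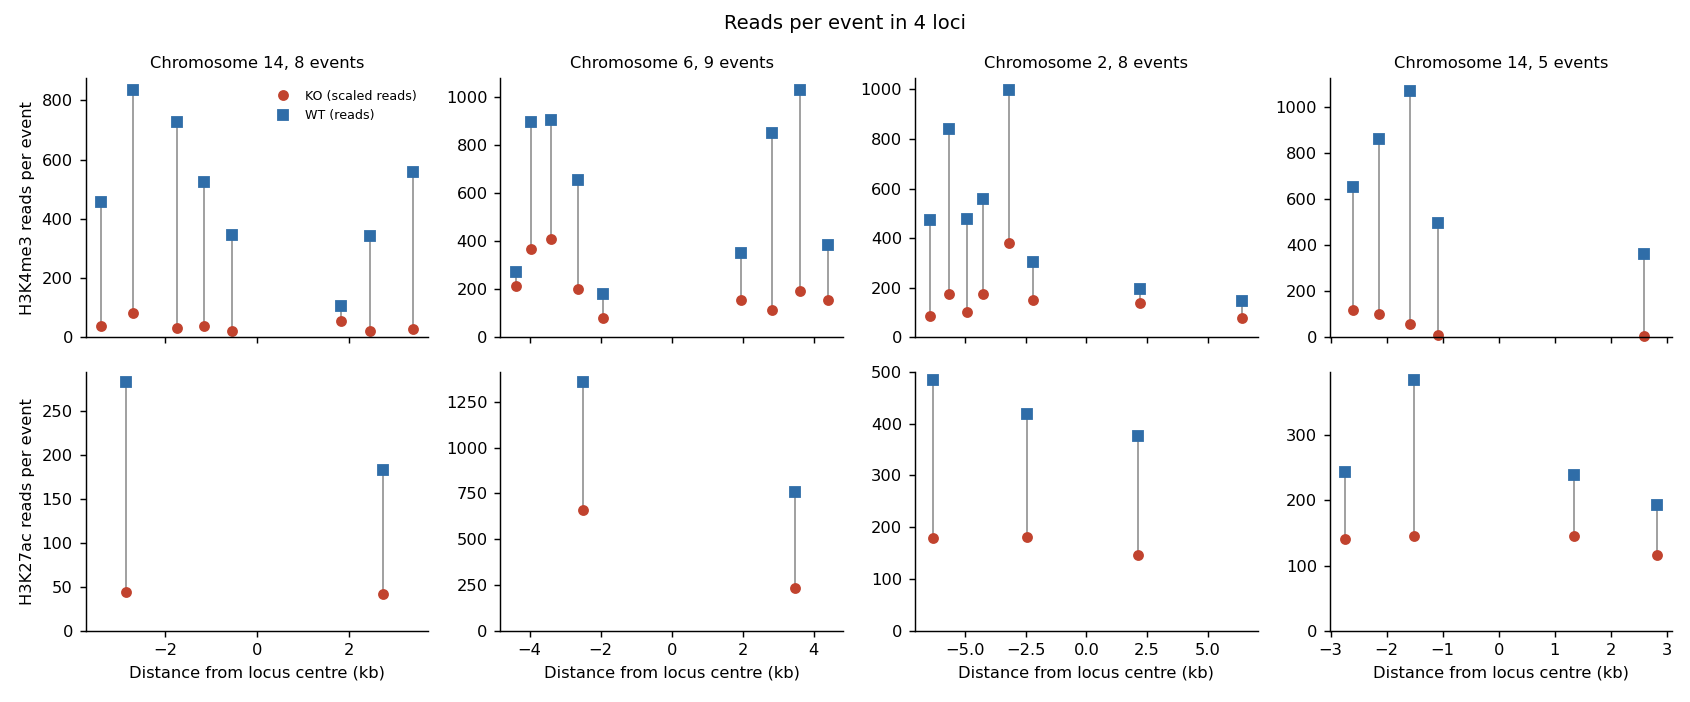
KO scaled reads (circles) and WT reads (squares) of each H3K4me3 event (top row) and H3K27ac event (bottom row) in 4 loci, by distance in kb from the locus centre. KO lies below WT at every event, and the gap is widest in proportion for H3K4me3 in both chromosome 14 loci, with levels of 8.33% and 8.46%, against 34.3% on chromosome 6 and 32.2% on chromosome 2.

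The chromosomes contributed unequally. Counted by events, chromosomes 6 (39), 2 (35), 14 (30), 9 (28) and X (28) held the most of the 313. Counted by loci, chromosome 9 came first with 15 of 141 (10.6%), followed by 6 and X with 14 each, 14 with 13 and 2 with 12. The 9 events of the locus with most events were among the 39 of chromosome 6. As a share of each chromosome's WT-higher H3K4me3 events, they came to 19.6% of chromosome 6's (14.3 to 25.8), with shares of 18.8% (13 to 25.7) for chromosome 14 and 16.5% (11.8 to 22.2) for chromosome 2. These intervals take events as independent, and since neighbours in a locus are not, they are too narrow. The lowest shares were 1.03% on chromosome 15, 1.32% on chromosome 19, 1.41% on chromosome 10 and 1.99% on chromosome 9 (1.32 to 2.86). Chromosome 9 held 1409 of the 5542 events of the list, and its background reads, KO over WT, stood at 0.840 for H3K4me3, against a median of 1.28 over chromosomes. That ratio was 1.01 on chromosome 19, 1.07 on chromosome 10 and 1.21 on chromosome 15. For H3K27ac on chromosome 9 it was 0.717. The part of these backgrounds in the shares was not tested. Without chromosome 9 the share over the list was 6.90% (285 of 4133 events).

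Counted from H3K27ac, the picture by chromosome was another. On chromosome 9, 20 of 148 WT-higher H3K27ac events (13.5%, 8.45 to 20.1) stood beside the 313, against 10.5% over all chromosomes. On chromosome X it was 18 of 57 (31.6%, 19.9 to 45.2), the largest share, and 14 of the 141 loci (9.93%) were there. The chromosome X events had a median H3K4me3 KO level of 8.95% and the chromosome 14 events 8.96%, while the chromosome 6 events had 24.4%. H3K27ac did not follow that order, with medians of 30.6% on chromosome X, 34.7% on chromosome 14 and 31.7% on chromosome 6. In units of own background the H3K4me3 medians were 17.7%, 16.3% and 39.3%.

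**Figure D5:**
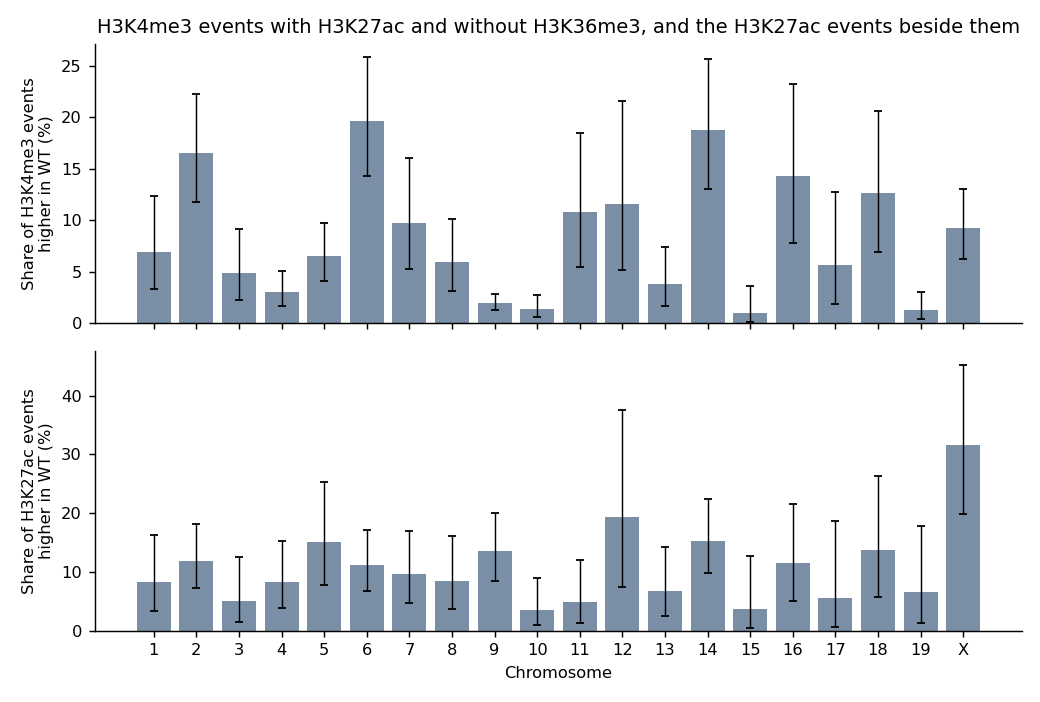
Share of each chromosome's WT-higher H3K4me3 events that had H3K27ac and lacked H3K36me3 (top), and share of its WT-higher H3K27ac events that lay beside them (bottom), in percent, with bars for the share and lines for exact 95% intervals, which take events as independent and are too narrow where loci hold several. Chromosome 6 leads in the top panel with 19.6% and chromosome X in the bottom panel with 31.6%.

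Events of the opposite direction were looked for around the same places, and the counts are small and come from clustered events. A KO-higher H3K27ac event lay within 10 kb of 0 of the 313, against a background of 1.05%, and within 50 kb of 4 (1.28%), against 9.87%. These 4 belong to 1 locus of the 141, 11935683 to 11937925 on chromosome 11, with H3K4me3 at 8.54% (7.59 to 9.58), H3K27ac at 29.9% (24.2 to 36.7) and the KO-higher event 35.2 kb away. A KO-higher H3K4me3 event lay within 50 kb of 4 events (1.28%), near the background of 1.75%. They too form 1 locus, 38824511 to 38826691 on chromosome 6, with H3K4me3 at 25.8% (24.5 to 27.1) from 1123 scaled reads in KO and 4358 reads in WT, and H3K27ac at 27.7% (24.0 to 32.0). The nearest KO-higher H3K27ac event was a median of 666 kb away, against 377 kb for the whole list. The rule required a WT-higher H3K27ac event within 5 kb of the 313, and the list has no such condition. Chromosome 9 held 1409 events of the list and 28 of the 313. The part of either in these H3K27ac differences was not tested, and nothing is read from them.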

How the data were processed

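Mouse build mm9 and TopHat 1.4 are named, without a role, per the submitters' processing notes. The deposited lists hold point events from the callers GPS (H3K27ac, KO-higher H3K36me3) or GEM (the others), per the file headers and names. The callers' versions are not given. For each event the authors deposited an expected count (reads in the higher genotype), a scaled signal for the other genotype and for background, their ratio as a fold, and −log10 values of q (at least 2) and p. Deposited shape scores and k-mer scores were not used. H3K27ac replicates were pooled, per the file names, and pooling is not stated for the other marks.

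KO levels were computed as scaled KO reads over WT reads. The listed background was read as that of each list's higher genotype. The KO scale factor was recovered as the step that made most KO values whole multiples, within 0.06 reads. It was 1.09 for H3K27ac (93.4% of values whole) and 0.461 for H3K4me3, where only 54.3% came out whole. Intervals, exact conditional binomial (Clopper-Pearson) on unscaled reads, and values in units of own background rest on these factors. The scripts were tested on simulated data. The settings tried otherwise were the distances, the q limit, a read minimum, the merging distance, the scale, an added read and leaving out chromosome 9.

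Events were named by a rule: the 10 with the largest −log10 q (1 per locus), the 5 with the lowest KO level and at least 3 KO reads, any with 0 KO reads, the 3 nearest on each side of each distance, and the 5 loci with most events or most H3K27ac reads. Named after their values were seen were those over 50% or 100%, those with H3K27ac lower or at most 10%, the widest spreads within a locus, and those near KO-higher events. All events and lists were chosen with earlier results of these data known. Computation used SciPy 1.17.1, pandas 2.3.3 and NumPy 2.4.6 under Python 3.11.15, and plots matplotlib 3.10.9.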

Additional observations from a re-analysis of the deposited data

How the results depend on the processing

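Of 37 alternatives over 7 results, 31 stayed within the limits used here: 1.5 times for a count, and the 95% interval of the reported value for a median or share. These limits are wider for counts than for medians. The minimum of 50 WT reads left out no event, since the fewest were 66 for H3K4me3 and 110 for H3K27ac. Its alternatives are among the 31 and could not have moved, so nothing is read from them. The 6 outside them all concerned scaling. Set over own background, the median KO level was 25.7% for H3K4me3 and 23.4% for H3K27ac, and with 1 median background ratio for all chromosomes, chosen after seeing the data, 23.8% and 22.5%. H3K4me3 was then the lower mark in 66 and 65 of 141 loci. Within the limits, the number of events ranged from 258 (−log10 q of at least 5) to 342 (no H3K36me3 within 5 kb). No paired analysis was possible because each genotype has a single column in a list; leaving out a replicate was impossible likewise. All alternatives start from events past the authors' threshold. Library depth is unknown.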
